A study of Mus musculus with 2 samples.

Results

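Enterocytes with Afp transcripts and little Fabp6 made up 225 of 11053 kept cells, or 2.04% (exact Clopper-Pearson 95% interval 1.78 to 2.32%). They come from a single-cell RNA study of sorted small intestine epithelium of mouse embryos at E18.5 (embryonic day, counted from the vaginal plug). The study compared 1 Control library with 1 Tet3 knockout library, each made from the pooled cells of 2 embryos, with the strain given as C57BL6/J. Tet3 encodes a dioxygenase that oxidises 5-methylcytosine in DNA. In the knockout, exon 5 is deleted and a stop codon arises early in exon 6. The deletion was made with Cre in cultured embryonic stem cells of a C57BL6/J and C3H/HeJ hybrid, so it is not limited to the gut. Chimeric males were bred with CD1 females, and the line was then backcrossed to C57BL6/JRccHsd for at least 5 generations. Cells of both libraries were fixed in 90% methanol.

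The members were selected on measured values, all of them signal scaled to 10000 per cell and written "per 10,000" here. They had Afp of at least 10, Fabp6 below 10, Fabp1 of at least 20, no Mki67 or Top2a (cycling genes), and a sum of the goblet cell genes Muc2, Fcgbp, Spink4, Clca1 and Zg16 below 10. Afp reached 10 in 1410 kept cells. Of these, 596 had Fabp6 below 10, 243 of those also had enough Fabp1, and 225 had no cycling transcript. The goblet limit then removed none. Levels of the genes in the rule are therefore a description of the choice and not a result.

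Cell barcodes carry 1 of 2 suffixes, called set 0 and set 1 here. Set 0 held 77 members among 5933 cells (1.30%, 1.03 to 1.62%) and set 1 held 148 among 5120 (2.89%, 2.45 to 3.39%). No label ties a suffix to Control or Tet3 knockout, so no genotype comparison was made. The table was treated as 1 pooled sample without replicates, and no p-value or standard error is given, because cells are not replicates. Both sets share 818 barcodes, and the set 1 row of each was left out. Kept cells had a median of 23048 unique molecular identifiers (UMIs) and members 26288. All intervals cover counting error only.

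Alpha-fetoprotein, the product of Afp, is a serum protein of the albumin family made by the yolk sac, the fetal liver and, at lower levels, the fetal gut. Fabp6 encodes the bile acid binding protein of ileal enterocytes, and Fabp1 a fatty acid binding protein that is most abundant in the proximal and middle small intestine. Around birth, distal enterocytes take up protein by endocytosis and digest it in large lysosomes, while proximal enterocytes specialise in lipid and mineral absorption.

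The sequences just upstream of 5 genes are shown: Afp, Fabp6 and Fabp1 because they define the cells, Alb because it is the neighbour of Afp and was counted as 1 UMI in all of them together, and Guca2a because its ratio to Afp-low enterocytes was high in both sets. Each line gives the 250 bases before the RefSeq start site (GRCm38.p6), 5′ to 3′ on the strand of the gene. Capitals mark matches on either strand to GTTAAT, found in sites of HNF1, to TTTATG, found in sites of CDX factors, and to AGATAA, found in sites of GATA factors. No match overlaps another in these windows.
Afp: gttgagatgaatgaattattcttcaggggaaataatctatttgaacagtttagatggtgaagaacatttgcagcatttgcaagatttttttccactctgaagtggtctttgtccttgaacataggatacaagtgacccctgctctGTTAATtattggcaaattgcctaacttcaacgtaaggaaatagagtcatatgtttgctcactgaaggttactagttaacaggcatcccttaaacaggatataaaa
Alb: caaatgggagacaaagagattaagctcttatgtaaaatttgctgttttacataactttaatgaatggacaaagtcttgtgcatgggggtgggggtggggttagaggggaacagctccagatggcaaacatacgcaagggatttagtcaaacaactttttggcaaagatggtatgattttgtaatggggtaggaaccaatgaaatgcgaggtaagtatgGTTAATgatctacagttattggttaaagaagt
Fabp6: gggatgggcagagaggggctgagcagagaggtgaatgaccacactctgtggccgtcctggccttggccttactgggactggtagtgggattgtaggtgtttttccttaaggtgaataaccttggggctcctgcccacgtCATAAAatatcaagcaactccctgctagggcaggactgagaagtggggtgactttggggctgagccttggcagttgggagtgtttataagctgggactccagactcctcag
Fabp1: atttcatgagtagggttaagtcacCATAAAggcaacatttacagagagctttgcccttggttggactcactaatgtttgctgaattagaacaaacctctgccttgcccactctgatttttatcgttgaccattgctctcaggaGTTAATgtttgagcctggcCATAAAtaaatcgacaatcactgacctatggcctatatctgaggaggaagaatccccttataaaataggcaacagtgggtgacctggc
Guca2a: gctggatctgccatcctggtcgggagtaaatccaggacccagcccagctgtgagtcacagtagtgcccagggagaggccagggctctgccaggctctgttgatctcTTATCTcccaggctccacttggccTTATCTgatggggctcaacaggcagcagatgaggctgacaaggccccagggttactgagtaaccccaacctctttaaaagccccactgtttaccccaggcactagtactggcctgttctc
The Afp window is chr5:90490464-90490713 and the Alb window chr5:90460620-90460869, both on the plus strand. The Fabp6 window is chr11:43601563-43601812 on the minus strand, and those of Fabp1 and Guca2a are chr6:71199629-71199878 and chr4:119637482-119637731 on the plus strand. GTTAAT was found 1 time each upstream of Afp, Alb and Fabp1, and in 6.43% of 32851 RefSeq windows of this length. TTTATG was found 1 time upstream of Fabp6 and 2 times upstream of Fabp1 (10.8% of windows), and AGATAA 2 times upstream of Guca2a (9.99%). A match describes letters only and is not evidence of binding.

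Where the members stood among Afp-positive enterocytes differed between the sets. In set 0, 549 cells met every limit but the one on Fabp6. Of these, 77 had Fabp6 below 10 (14.0%, 11.2 to 17.2%), 118 had 10 to 50 and 354 had 50 or more (64.5%). In set 1, 148 of 169 were below 10 (87.6%, 81.6 to 92.1%), 17 had 10 to 50 and 4 had 50 or more. Low Fabp6 was thus the usual state of Afp-positive enterocytes in set 1 and the rarer state in set 0. The sets differed in Fabp6 over all kept cells too, with a mean of 27.5 in set 0 and 1.90 in set 1. Fabp6 reached 50 in 1108 of 5933 kept cells of set 0 and 27 of 5120 of set 1. The difference is therefore not particular to Afp-positive enterocytes. The labels do not say what the sets are, and what underlies the difference was not tested.

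**Figure D1:**
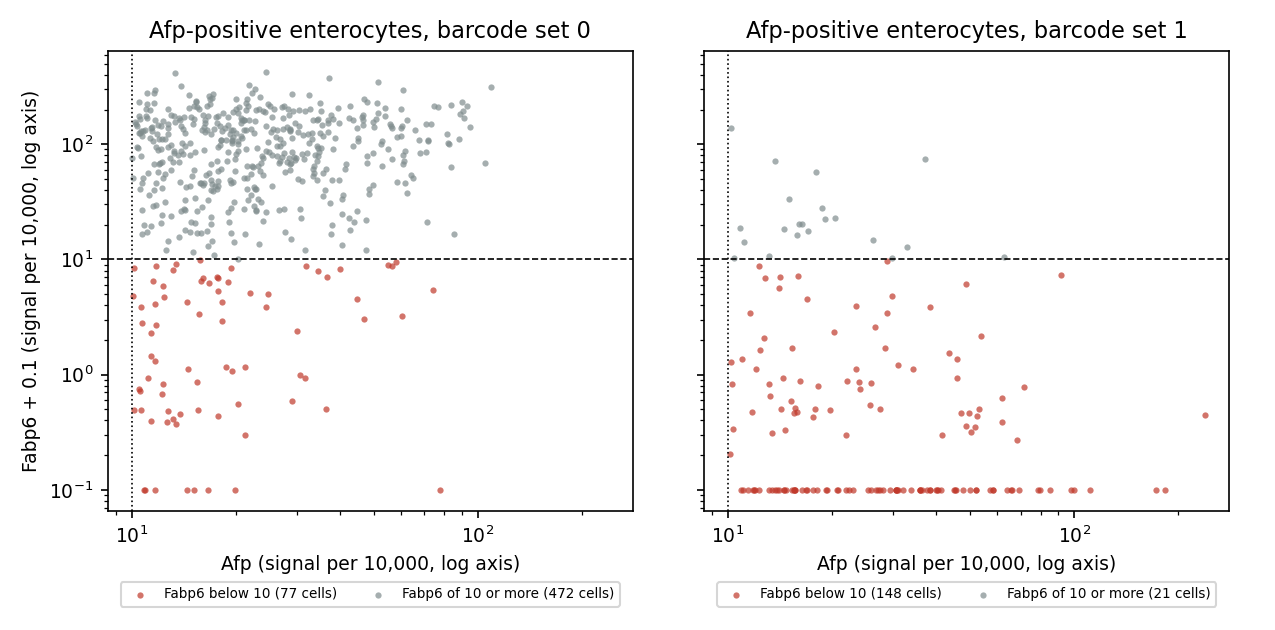
Afp (x axis) and Fabp6 plus 0.1 (y axis), both signal per 10,000 on log axes, in Afp-positive enterocytes of set 0 (left) and set 1 (right). Each point is a cell, the dashed line marks Fabp6 of 10 and the dotted line Afp of 10; 77 of 549 cells lie below the dashed line in set 0 and 148 of 169 in set 1.

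Afp in the members ran from 10.1 to 239 per 10,000, with a median of 15.8 in set 0 and 25.9 in set 1. Fabp6 was 0 in 8 members of set 0 and 79 of set 1, and its medians were 2.62 and 0. Median Fabp1 was 216 and 99.0. Just outside the Afp limit, 51 cells with Afp of 8 to 10 averaged 15.7 Ttr and 2.75 Guca2a. Just inside it, 33 cells with Afp of 10 to 12 averaged 15.7 Ttr and 4.96 Guca2a. On the Fabp6 side, the 12 members at 8 to 10 averaged 6.60 Guca2a and the 10 cells at 10 to 12 averaged 4.13.

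Markers of enterocytes were present, and several lists for other cell types were at or near 0, while goblet, hepatocyte and yolk sac markers were counted. The list of 12 enterocyte markers, without Fabp1 of the rule, summed to 729 per 10,000, against 765 in Afp-low enterocytes. Fabp1 itself averaged 145 against 241. Of the immune and of the endothelial markers, 5 of 5 and 5 of 5 in the table were at 0 in all members. The 8 mesenchyme markers summed to 0.00545, the 4 tuft cell markers in the table to 0.00280 and the 7 Paneth cell markers to 0.0231. The 12 cell cycle markers outside the rule summed to 1.39, against 5.33 in all other kept cells. Goblet markers outside the rule summed to 0.366 in set 0 members and 1.31 in set 1 members, against 0.306 and 0.330 in Afp-low enterocytes. Most of that was the trefoil peptide gene Tff3, at 0.205 and 1.17, and its part in other differences was not tested. The 14 enteroendocrine markers reached a sum of 5 in 1 member, of set 1, which had 166 in all and 87.8 of the hormone gene Cck. Progenitor markers summed to 0.0276. The list of 14 visceral yolk sac markers holds Afp, which was left out of the sum, and genes that enterocytes also express, such as Apoa1 and Apoa4. Without Afp these markers summed to 469, against 328 in Afp-low enterocytes and 335 in Fabp6-high cells.

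Few albumin transcripts were counted. Afm, which encodes afamin and lies downstream of Afp, averaged 0.323 in set 0 members and 0.615 in set 1 members, against 0.212 and 0.279 in Afp-low enterocytes. Alb was counted as 1 UMI in all members together, and in 0 of 221 members thinned to 8000 UMIs, which allows up to 1.66% of cells with an Alb UMI at that depth and sets no limit on cells expressing the gene. Gc, the vitamin D binding protein gene of the same family, averaged 0.00965. In GRCm38 the neighbours lie on the plus strand of chromosome 5, with Alb at 90460897 to 90476602, Afp at 90490737 to 90508907 and Afm at 90518932 to 90553543. Of the 11 hepatocyte markers in the table, 5 (Apoh, Cyp2e1, Hamp, Hpx and Itih4) were at 0 in all members. The hepatocyte sum of 2.12 came mostly from Fgb, a fibrinogen chain gene, at 1.07 and Serpina1a, an antitrypsin gene, at 0.764.

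The closest comparison is with 5442 Afp-low enterocytes, which meet the same rule except that Afp is below 10. Of 2756 genes with a mean of at least 0.5 in either group, 59 were at least 2-fold higher in the members (2.14%) and 43 at least 2-fold lower (1.56%). The genes of the rule were left out, and 0.1 was added to both means before the log2 ratio, whose median over all tested genes was 0.02. All 102 of these genes had the same sign in both sets. Genes of distal enterocytes, lysosomes and serum proteins were higher, and genes of proximal enterocytes were lower.

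Ttr encodes transthyretin, a carrier of thyroid hormone and of retinol binding protein that is also made by yolk sac and liver. It averaged 14.8 in set 0 members and 32.6 in set 1 members, against 3.93 and 4.93 in Afp-low enterocytes (log2 ratio 2.55). Single members ran from 0.655 to 102 in set 0 (median 9.35) and from 0 to 169 in set 1 (median 23.3). The groups overlapped, since 11.0% of Afp-low cells of set 0 and 3.03% of set 1 reached the member median of their set. Summed over cells, Ttr had 26.8 UMIs per 10,000 in members (exact Poisson 95% interval 26.4 to 27.2) and 4.69 in Afp-low enterocytes (4.66 to 4.73). Fgb was at 1.07 against 0.196 (log2 1.98) and the transferrin gene Trf at 2.04 against 0.785 (1.27), whereas Serpina1a was at 0.764 against 0.973 (-0.31). Of 5 tested serum protein genes, 4 lay above 0 and 3 were at least 2-fold higher, with a median of 1.27. Visceral yolk sac markers, a list that holds Ttr and Lgmn too, lay above 0 in 12 of 12, with a median of 0.74. Fabp6-high cells had these transcripts as well. In set 0, Fgb averaged 0.933 in members and 1.13 in Fabp6-high cells, and Trf 2.90 and 1.68.

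Guca2a encodes guanylin, a peptide that drives fluid secretion through guanylate cyclase C. It averaged 4.68 and 6.17 in members of set 0 and set 1, against 0.603 and 0.496 in Afp-low enterocytes (log2 3.16, with 2.77 in set 0 and 3.39 in set 1). Any Guca2a was counted in 62 of 77 and 133 of 148 members, and the medians were 1.72 and 5.08. After thinning each cell to 8000 UMIs, 76.9% of members had a Guca2a UMI (86.7% before), against 20.9% of Afp-low enterocytes, 93.3% of Fabp6-high cells and 90.0% of 50 goblet cells. 4 members were too shallow for thinning. Guca2b, the uroguanylin gene, was closer between the groups, at 11.9 against 9.01 (log2 0.40). Clca4b, of the calcium-activated chloride channel regulators, was at 8.57 against 3.13 (1.42).

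Bex1, Bex2 and Bex3, small proteins encoded on the X chromosome, were all higher in mean level than in Afp-low enterocytes. Bex3 averaged 5.00 and 7.07 in members of set 0 and set 1, against 1.73 and 1.72. Bex1 averaged 1.22 and 3.63 against 0.285 and 0.464, and Bex2 0.365 and 2.32 against 0.0257 and 0.103. Fabp5, a fatty acid binding protein gene known best from skin, averaged 0.358 in set 0 members and 3.37 in set 1 members, against 0.117 and 0.293. In Fabp6-high cells of set 0, Bex1 averaged 3.11, Bex2 0.647, Bex3 4.68 and Fabp5 0.665. Members of set 0 were thus below these cells in Bex1, Bex2 and Fabp5, and slightly above them in Bex3. Any Fabp5 was counted in 20 of 77 members of set 0 and 139 of 148 of set 1. After thinning, 15.8% of set 0 members and 82.1% of set 1 members had a Fabp5 UMI, against 10.3% of Afp-low enterocytes and 16 of 50 goblet cells, so the set 0 share was not above that of goblet cells. For Bex2 the shares were 21.1% and 64.8%, against 3.15% and 12 of 50. For Bex1 they were 44.7% and 116 of 145, against 17.8% and 30 of 50. The set 0 shares of Bex1 and Bex2 were thus not above those of goblet cells, and the intervals overlapped. They were 33.3 to 56.6% against 45.2 to 73.6% for Bex1, and 12.5 to 31.9% against 13.1 to 38.2% for Bex2. The goblet cells were not divided by set and are not a measured background. Unthinned Bex2 was counted in 23 and 122 members. The pooled log2 ratios of 3.39 for Bex2 and 2.97 for Fabp5 therefore rest mainly on set 1, where they were 3.58 and 3.14, against 1.89 and 1.08 in set 0.

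Lysosomal genes were higher as a group. All 27 of 27 tested lysosome genes lay above 0 and 5 were at least 2-fold higher, with a median log2 ratio of 0.67 (0.68 in set 0 and 0.72 in set 1). Lgmn encodes legumain, a lysosomal cysteine protease. It averaged 8.45 and 3.58 in members, against 1.60 and 0.397 in Afp-low enterocytes (log2 2.34). The level was higher in set 0 than in set 1 in both groups. The cathepsin L gene Ctsl was at 13.5 against 5.23 (1.35). The other genes past 2-fold, named after their values were seen, were the cathepsin D gene Ctsd (1.14), the hexosaminidase subunit gene Hexa (1.07) and the sialidase gene Neu1 (1.02). Among the smallest ratios was that of Asah1, an acid ceramidase gene, at 0.723 against 0.567 (0.30).

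Endocytic genes showed a smaller shift, with 14 of 16 above 0 and a median of 0.36. The clathrin adaptor gene Dab2 was at 4.04 against 1.40 (1.47). The receptor gene Cubn was at 2.22 against 1.15 (0.88), and its partner Amn at 8.71 against 5.22 (0.73). Fcgrt, the neonatal Fc receptor gene, differed in sign between the sets, at 31.0 against 27.1 in set 0 and 13.6 against 18.4 in set 1. Gpx3, a secreted glutathione peroxidase gene, averaged 28.4 and 11.2 against 6.15 and 1.91 (log2 2.11). Its lowest member had 0.971, and 2.01% and 2.06% of Afp-low cells reached the member median of their set. Fabp6-high cells of set 0 averaged 30.4 Gpx3, near the 28.4 of set 0 members.

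Regional genes separated along the gut axis in the comparison with Afp-low enterocytes. Of 10 tested distal genes, 8 lay above 0 and 4 were at least 2-fold higher (median 0.81). Tmigd1, a membrane adhesion protein gene, was at 0.645 against 0.0839 (2.02). Of 8 tested proximal genes, 7 lay below 0 and 4 were at least 2-fold lower (median -1.38). Reg1, a secreted lectin gene, averaged 0.0378 against 2.09 (log2 -3.99). It was counted in 18 of 225 members, none above 1.31, while the highest Afp-low cell had 271. Dmbt1, a mucosal scavenger protein gene, was at 0.180 against 1.38 (-2.41), and Ctrb1, a chymotrypsinogen gene, at 0.0747 against 0.692 (-2.18). The transcription factor gene Onecut2 was at 0.154 against 0.996 (-2.11). It was the 1 gene past 2-fold among 19 tested enterocyte and patterning factors, whose median was 0.02. Among other genes, the keratin gene Krt19 was at 0.388 against 3.51 (-2.89), the creatine kinase gene Ckb at 0.541 against 3.18 (-2.35) and the claudin gene Cldn15 at 0.0499 against 0.601 (-2.23). Fabp6-high cells of set 0 were low too, at 0.116 for Reg1, 0.158 for Dmbt1, 0.506 for Krt19, 0.618 for Ckb and 0.0362 for Cldn15. Members of set 0 had 0.0480, 0.198, 0.494, 0.681 and 0.0444 in the same order. Tmigd1 averaged 1.16 in Fabp6-high cells of set 0 and 0.941 in members of set 0.

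**Figure D2:**
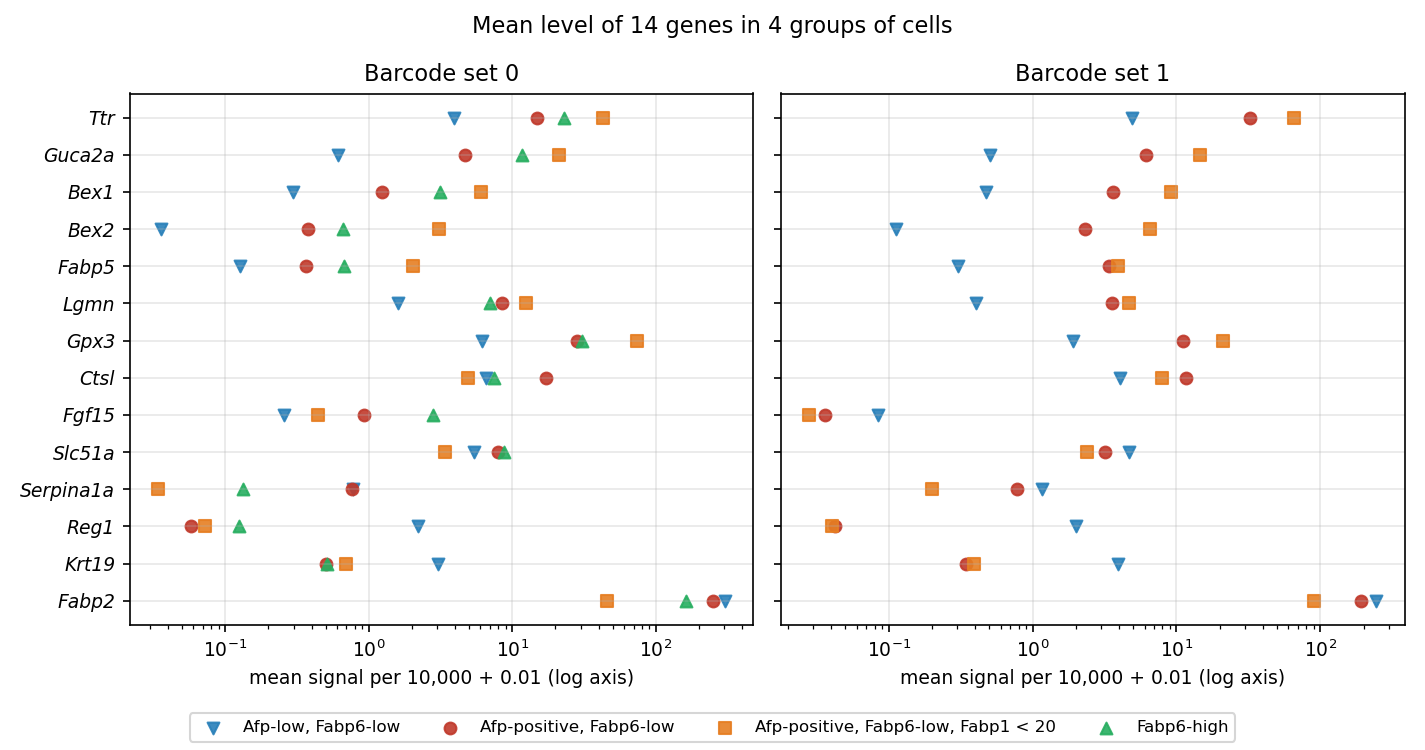
Mean level of 14 genes (signal per 10,000 plus 0.01, log axis) in set 0 (left) and set 1 (right). Circles are members and down triangles Afp-low enterocytes. Squares are Afp-positive, Fabp6-low cells with Fabp1 below 20, and up triangles are Fabp6-high cells (set 0 only). For Ttr, Guca2a, Bex1 and Bex2 the members lie between Afp-low enterocytes and the cells with Fabp1 below 20 in both sets.

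Lists of absorptive and metabolic genes differed in how far they lay from Afp-low enterocytes. The median log2 ratio was 0.03 over 21 genes of lipid absorption, with 12 above and 9 below 0. The apolipoprotein genes Apoa1 and Apoa4 were at 238 against 177 and 157 against 122, and Apoc2, an activator of lipoprotein lipase, at 17.9 against 26.5. Of 20 fatty acid oxidation genes, 15 lay below 0 (median -0.20) and 0 passed 2-fold. Retinoid and xenobiotic genes had a median of -0.36 over 10, with the retinol binding protein gene Rbp2 at 104 against 176. Microvillus genes had a median of 0.24 over 17, and 16 lay above 0. Among 14 brush border hydrolases (median 0.37), 3 were at least 2-fold higher and 1 lower. The peptidase genes Naaladl1 (1.79), Enpep (1.33) and Mep1a (1.18, named after its value was seen) were higher. Mme, the neprilysin gene, was at 0.762 against 2.54 (-1.61). Imprinted genes had a median of 0.76 over 7, with Plagl1, a zinc finger gene, at 0.603 against 0.251 and the noncoding RNA H19 at 41.0 against 31.6. Medians of further lists were 0.25 for iron (8 of 9 above 0), 0.19 for interferon and MHC class I genes (5 of 9), -0.06 for sugar, peptide and amino acid transport (4 of 11), -0.15 for the urea cycle (5 of 14) and -0.25 for immediate early and heat shock genes (2 of 11). In the urea cycle list, Asl, which makes arginine from argininosuccinate, was at 4.60 against 1.82 (1.29).

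Cholesterol synthesis genes differed between the sets. All 17 of 17 tested genes lay above 0 against Afp-low enterocytes and 5 were at least 2-fold higher, but the median was 0.12 in set 0 and 0.92 in set 1. Hmgcs1, which makes the precursor of mevalonate, averaged 0.948 in set 0 members and 4.03 in set 1 members, against 0.793 and 1.39. Fdps, the farnesyl diphosphate synthase gene, averaged 4.93 and 16.0 against 4.62 and 5.84. In set 0 the members were thus near Afp-low enterocytes in this pathway, and in set 1 above them. The difference between the sets was not tested.

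**Figure D3:**
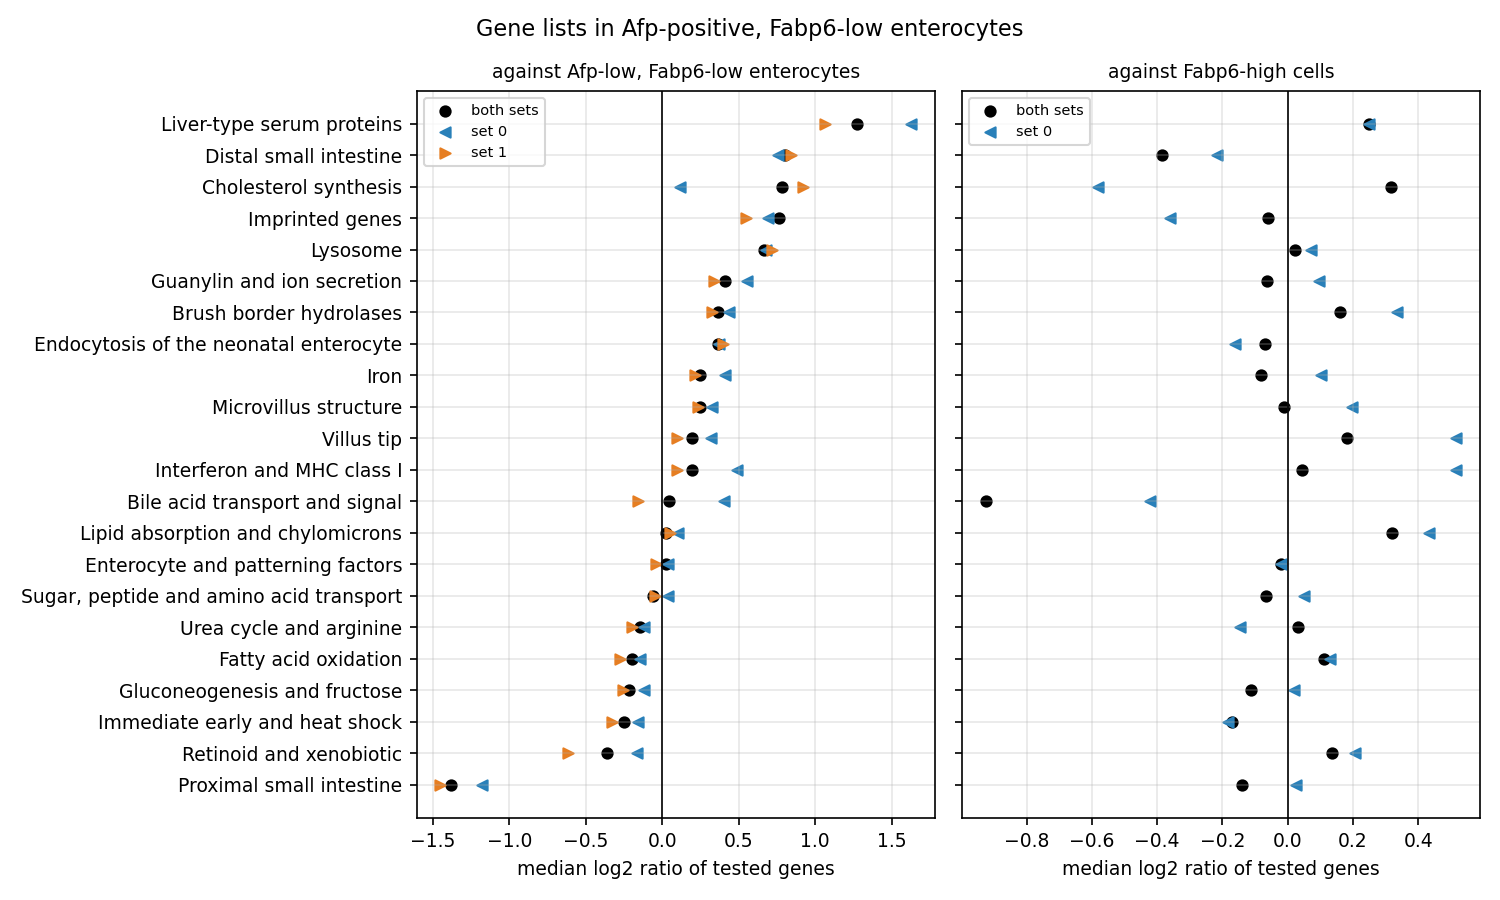
Median log2 ratio of the tested genes of each list in members against Afp-low enterocytes (left) and against Fabp6-high cells (right), pooled (circles) and within a set (triangles; set 1 is not drawn on the right, where it has 27 Fabp6-high cells). Lysosome genes lie at 0.67 on the left and 0.02 on the right, and proximal genes at -1.38 and -0.14.

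Fabp6-high cells, with Fabp6 of at least 50 and no limit on Fabp1, cycling or goblet genes, numbered 1135, of which 1108 were in set 0. Of 2755 tested genes, 11 were at least 2-fold higher in the members (0.399%) and 13 at least 2-fold lower (0.472%). The sign was the same in both sets for 2 of the 11 and 10 of the 13, with 27 Fabp6-high cells in set 1. Within set 0 alone the counts were 34 and 14. Pooled ratios set members mostly of set 1 against cells mostly of set 0, so set 0 values are given for each gene.

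Genes of bile acid handling were lower in the members, though in set 0 only Fgf15 was past 2-fold. Fgf15 encodes the ileal hormone that restrains bile acid synthesis in the liver. It averaged 0.915 in set 0 members and 0.0262 in set 1 members, against 2.80 in Fabp6-high cells of set 0 (log2 -2.73 pooled and -1.52 in set 0). Any Fgf15 was counted in 48 of 77 members of set 0 and 7 of 148 of set 1, and in 95.4% of Fabp6-high cells of set 0. After thinning, a Fgf15 UMI was found in 35.5% and 1.38% of members, and in 12.0% of 50 goblet cells, whose median depth was 10629 UMIs. The set 1 share was not above that of the goblet cells, which were not divided by set and are not a measured background. The bile acid exporter subunit gene Slc51a averaged 7.93 and 3.16 in members, against 8.70 in set 0, and its partner Slc51b 3.14 and 1.31 against 4.0. Nr0b2, a repressor gene induced through the bile acid receptor, averaged 0.501 and 0.0167 against 0.530. The receptor gene Nr1h4 averaged 1.33 and 1.93 against 1.93, and the exporter gene Abcc2 4.01 and 3.25 against 6.26. Of 6 tested genes of the list, 0 lay above 0 and 3 were at least 2-fold lower (median -0.93, and -0.42 in set 0). These pooled calls were Fgf15, Nr0b2 and Slc51b, and in set 0 Nr0b2 and Slc51b did not pass 2-fold. Against Afp-low enterocytes, Fgf15 was higher in set 0 (log2 1.55) and lower in set 1 (-0.47). The 27 Fabp6-high cells of set 1 averaged 0.708 Fgf15, 0.319 Nr0b2, 8.66 Slc51a and 3.28 Slc51b, so Fgf15 and Nr0b2 differed between the sets in Fabp6-high cells as well. Members of set 1 were below these cells in all 4 genes, and members of set 0 were near those of set 0 in Slc51a and Nr0b2.

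Among the higher genes, Serpina1a averaged 0.754 in set 0 members against 0.122 in Fabp6-high cells of set 0 (log2 1.94). The water channel gene Aqp8 was at 0.479 against 0.130 (1.33), Mme at 1.17 against 0.219 (1.99) and the fatty acid carrier gene Cd36 at 1.12 against 0.308 (1.58). Ctsl was at 17.1 against 7.50 (1.18). Serpina1a, Mme and Cd36 had the opposite sign in set 1. Guca2a was at 4.68 against 11.7 (-1.30), and Ttr at 14.8 against 22.9 (-0.63), so in set 0 both lay between Afp-low enterocytes and Fabp6-high cells. Lysosome genes had a median of 0.02 (0.07 in set 0 and 0.33 in set 1), with 15 of 27 above 0. Lipid absorption genes had a median of 0.32 (0.43 in set 0 and -0.24 in set 1), with 16 of 21 above 0. Proximal genes had a median of -0.14 over 4, and 0.03 in set 0 and -0.24 in set 1. Distal genes had a median of -0.39 (-0.22 in set 0 and the opposite sign in set 1), with 3 of 11 above 0.

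Limiting the comparison to the 581 Fabp6-high cells with Afp of at least 10, a choice made after seeing the data, left 577 cells in set 0 and 4 in set 1. In set 0 their mean Afp was 31.4, against 21.6 in the members, so Afp was not matched. Fgf15 averaged 2.70 in those cells of set 0, Guca2a 12.7 and Serpina1a 0.121, against 0.915, 4.68 and 0.754 in the members of set 0. The part of the Afp level in these differences was not tested.

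Against all 10828 other kept cells, 23 of 2841 genes were at least 2-fold higher (0.81%) and 73 at least 2-fold lower (2.57%). The highest ratios were those of Bex2 (1.71 pooled, but 0.23 in set 0 and 1.78 in set 1), Ttr (1.54), the gamma-secretase subunit gene Aph1c (1.52), Ctsl (1.51) and Lgmn (1.40).

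Cells that meet the Afp and Fabp6 limits but have Fabp1 below 20, a group also added after seeing the data, numbered 98 in set 0 and 255 in set 1. Unlike the members, these cells had no limit on cycling or goblet genes. Their mean Afp was 41.9 and 52.8, against 21.6 and 35.0 in the members. Ttr averaged 42.6 and 65.4 in them, Guca2a 21.1 and 14.5, and Gpx3 74.3 and 21.0, each above the members of the same set. Fabp2, the intestinal fatty acid binding protein gene, averaged 45.5 and 90.6, below the members at 252 and 193. Ctsl averaged 4.89 and 7.99, also below the members at 17.1 and 11.6.

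The 8 genes with the highest correlation with Afp over the members, by the lower value of the sets, were picked from 1286 genes, whose median r was 0.02 in set 0 and -0.01 in set 1. Pearson's r of log(1 + value) with Afp was 0.32 in set 0 (77 cells) and 0.34 in set 1 (148 cells) for Gpx3, 0.30 and 0.27 for Ttr, and 0.33 and 0.23 for Amn. These values describe cells that share a library and its depth. With the members of each set divided by Afp into 3 parts, Ttr, picked by that correlation, averaged 11.6, 13.8 and 19.1 from low to high Afp in set 0, and 25.2, 30.1 and 42.8 in set 1. Fabp1, which like Afp was used in the rule, is given as a description, with 246, 208 and 174 in set 0 and 141, 103 and 89.2 in set 1. Slc51a differed in direction between the sets, with 6.97, 7.53 and 9.34 in set 0 and 3.96, 3.05 and 2.47 in set 1.

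**Figure D4:**
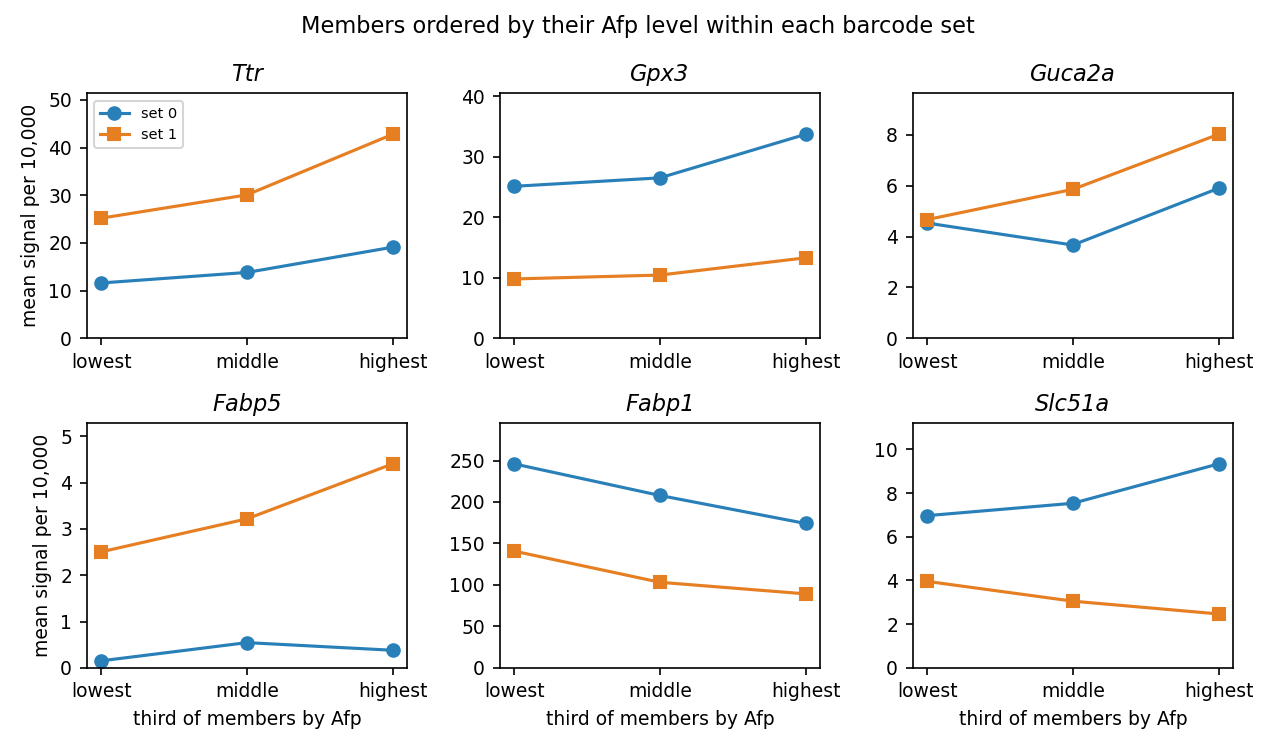
Mean level (signal per 10,000, axes from 0) of 6 genes in members divided by Afp into 3 parts of near equal size within set 0 (circles) and set 1 (squares). Ttr and Gpx3, which were picked for their correlation with Afp, are highest in the part with the highest Afp in both sets, and Slc51a is highest there in set 0 and lowest in set 1.

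The highest means on the per 10,000 scale, which comes from 3′ tags and is not divided by transcript length, were those of Apoa1 (238), Fabp2 (213) and Apoa4 (157), leaving out the genes of the rule. Among members, variance over mean was 37.9 for Apoa1, 43.6 for Fabp2 and 27.8 for Ttr. Tet3 averaged 0.379 in set 0 members and 0.211 in set 1 members, against 0.261 and 0.199 in Afp-low enterocytes. The tags may lie outside exon 5, so they check no genotype. Tet2 averaged 0.227 and Tet1 0.00926 in the members.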

How the data were processed

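The deposited table gives, for 11871 cells and 25663 genes, a signal that the authors had scaled to 10000 per cell; per the submitters' processing notes the tools included Salmon 0.14.1 with alevin and Scanpy 1.6.0, and the builds GRCm38 and mm10. Libraries were 10x Genomics 3′ libraries, per the labels' protocols. UMIs per cell were recovered by taking the most frequent non-zero value of each cell as 1 UMI. A median of 94.9% of values per cell were whole multiples of it within 0.01. Kept cells held a median of 23048 and up to 250630 UMIs. For 818 barcodes found with both suffixes, the set 1 row was left out, leaving 11053 cells. Kept cells had at least 1193 genes and at most 15.0% mitochondrial signal. No doublet caller was run.

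Group means were compared as log2 of the ratio with 0.1 added, over genes with a mean of at least 0.5 in either group, and 2-fold was the limit for a count. Exact Poisson intervals used summed UMIs and exact Clopper-Pearson intervals (95%) were used for shares. Shares were also computed after thinning to 8000 UMIs. Named genes are those of highest or lowest ratio with the same sign in both sets. A set was checked for sign only where both groups held at least 50 cells, so set 1 was not checked against Fabp6-high cells. Also named are genes of highest mean, highest variance over mean, highest correlation with Afp, and the extremes of each of 41 gene lists. Others are said to be named after their values were seen. The members and lists were chosen with earlier results of these data known. Python 3.11.15, numpy 2.4.6, scipy 1.17.1 and matplotlib 3.10.9 were used, and the steps were tested on simulated data. Promoter windows are RefSeq's. Alternatives covered the limits of the rule, the sets, shared barcodes, depth, the minimum mean, the added constant and scaling.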

Additional observations from a re-analysis of the deposited data

Results flagged for a closer look

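Among the 818 rows left out because their barcode also occurs in set 0, 7 met the rule for Afp-positive enterocytes with low Fabp6. They are a signal in rows that the main comparisons left out, and that only the alternative with shared barcodes kept included. Their mean Afp was 27.4 per 10,000 (10.1 to 77.2), their mean Ttr 20.7 and their mean Guca2a 4.61, and their median depth was 13988 UMIs. For 5 of these barcodes the kept row of set 0 met the rule too.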

How the results depend on the processing

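No paired analysis was possible because each group has 1 library and no column carries a replicate. The members were 2.04% of kept cells, and 3.57% with Afp of at least 5, 1.01% with Afp of at least 20, 1.76% with Fabp6 below 5, 1.30% in set 0 alone and 2.89% in set 1 alone. Against Afp-low enterocytes 102 genes passed 2-fold, and 76 to 133 under the alternatives. Against Fabp6-high cells 24 passed, and 48 in set 0 alone, 61 in set 1 alone and 13 with a minimum mean of 1. Against all other cells 96 passed, and 163 in set 0 alone, 149 in set 1 alone and 61 with a minimum mean of 1. In set 1 alone, where 27 cells had high Fabp6, the log2 ratio against them reversed for Cd36 (-0.49), Cysrt1 (0.55), Mme (-1.04), Rbp4 (0.61) and Serpina1a (-0.44), and the list median for distal genes (0.21) and lipid absorption (-0.24). In set 0 alone it reversed for cholesterol synthesis (-0.58). Against Afp-low enterocytes 0 of 400 values of the highest and lowest ranked genes reversed; list medians of at least 0.3 in size kept their sign, but smaller ones did not all do so (sugar, peptide and amino acid transport was -0.06 pooled and 0.04 in set 0, enterocyte markers -0.09 and 0.01, and enterocyte and patterning factors 0.02 pooled and -0.04 in set 1). The cause was not tested. With 1 pooled sample, spread between animals is unknown. Equal weight of the sets and leaving out the member with Cck were added after seeing the data, as was the limit to Afp-positive Fabp6-high cells, which gave 29 genes.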
